A study of Mus musculus with 12 samples.

Results

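The genes described here encode the enzymes and transporters of glycolysis, of the pentose phosphate branch and of the entry of pyruvate into lactate or the mitochondrion. They were followed along the posterior neural tube of CD1 mouse embryos, an outbred stock, at embryonic day 9.5. The list was chosen by gene name and holds 31 genes. Of these, 28 had at least 1 probe set whose platform annotation names that gene alone, of 18194 genes so named in all, giving 65 probe sets of 34958 that name a single gene. Gpi1, Eno1 and G6pdx had none. Eno2 had 1, but it stayed too dim for testing, so that 27 members were tested. In all groups the embryos were otherwise untreated, and spent 1 min in the enzyme mixture pancreatin (2 mg per ml) before the tube was freed with needles from ectoderm, endoderm and lateral plate. It was cut into 6 pieces, parts 1 to 6. Each piece has 2 arrays, replicates 1 and 2, and the design text gives 2 embryos as the source. The replicate number is taken here as the embryo, which the labels do not state. The labels do not say which number is the caudal end. The tests treat the 12 arrays as separate samples, although pieces of 1 embryo are not independent. Their p-values rest on the scatter of arrays around each fit. With 2 embryos they do not measure the spread among embryos.

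Glycolysis splits glucose into pyruvate through a chain of cytosolic enzymes, many of which exist as isozymes made by different genes. Pyruvate is then either reduced to lactate and exported, or carried into the mitochondrion and oxidised by pyruvate dehydrogenase, while the pentose phosphate branch draws on the same sugar phosphates to make NADPH and ribose. High glycolytic activity with lactate production is known from the growing caudal end of vertebrate embryos, and several of these genes are classical targets of the hypoxia factor HIF1 and of MYC proteins.

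The pieces ran from tissue with caudal transcripts to tissue with neural progenitor transcripts. Of 9 tested genes of the caudal growth zone, 7 fell with the part number and 0 rose, and their summed signal went from 8209.5 and 8538 in part 1 (replicates 1 and 2) to 1670.5 and 1499 in part 6. Of 10 neural tube genes, 7 rose and 0 fell, with sums of 1921 and 1573 in part 1 against 9149 and 9236 in part 6. The progenitor factor Sox2 averaged 243 ± 61.9 in part 1 and 1518 ± 131 at the other end (SD, n = 2). Markers of presomitic mesoderm, the neighbouring tissue that makes the somites, summed to between 2242 and 6015 on the 4 arrays of parts 1 and 2 and to between 365 and 703 on the other 8 arrays. Surface ectoderm markers summed to 1388 and 507 in part 1 and to between 268 and 830 elsewhere. Red blood cell markers, mostly embryonic globins, ranged from 89.8 to 9989 and were higher in replicate 2 in 5 of 6 pieces. No deposited signal is 0, but 5 of 8 somite markers and 5 of 9 endothelial markers were too dim to be tested. In whole pieces, fewer cells of a type and less RNA per cell cannot be told apart.

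In the main fit, which did not pair the arrays by embryo, 3 of 27 members passed the slope test, all upward. They were the glucose transporter Slc2a1, the monocarboxylate transporter Slc16a1 and the lactate dehydrogenase subunit Ldhb. With the replicate number as a covariate, Slc2a3 and Pfkp also passed, as lower. The main fit used limma on the slope of log2 signal per part number (Benjamini-Hochberg adjusted p under 0.05 over 12090 genes). It called 3 members upward and 0 downward, against 5.66% and 7.08% of all genes tested and 12.7% in either direction. The other 24 members did not pass. At an unadjusted p under 0.05 the limma test gave 3 members higher and 8 lower, against 11.7% and 14.8% of all genes. Of the 8, 1 was a transporter, 4 belonged to the upper and 1 to the lower steps of glycolysis, and 2 to the fate of pyruvate. The members' slopes were small, with a median of -0.038 log2 per part and a median size of 0.054, against -0.0073 and 0.050 over all genes. Slopes were below 0 for 20 of 27 members and for 54% of all genes. With quantile normalization between arrays the count was 19 of 27. Most of these members were bright. Of 12 members with a mean signal of at least 2000, 11 had a slope below 0, as did 264 of all 393 genes of that brightness (67.2%), and the medians were -0.055 and -0.017. Among 10 members between 100 and 1000 the count was 5. The part of brightness in this shift was not tested.

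**Figure D1:**
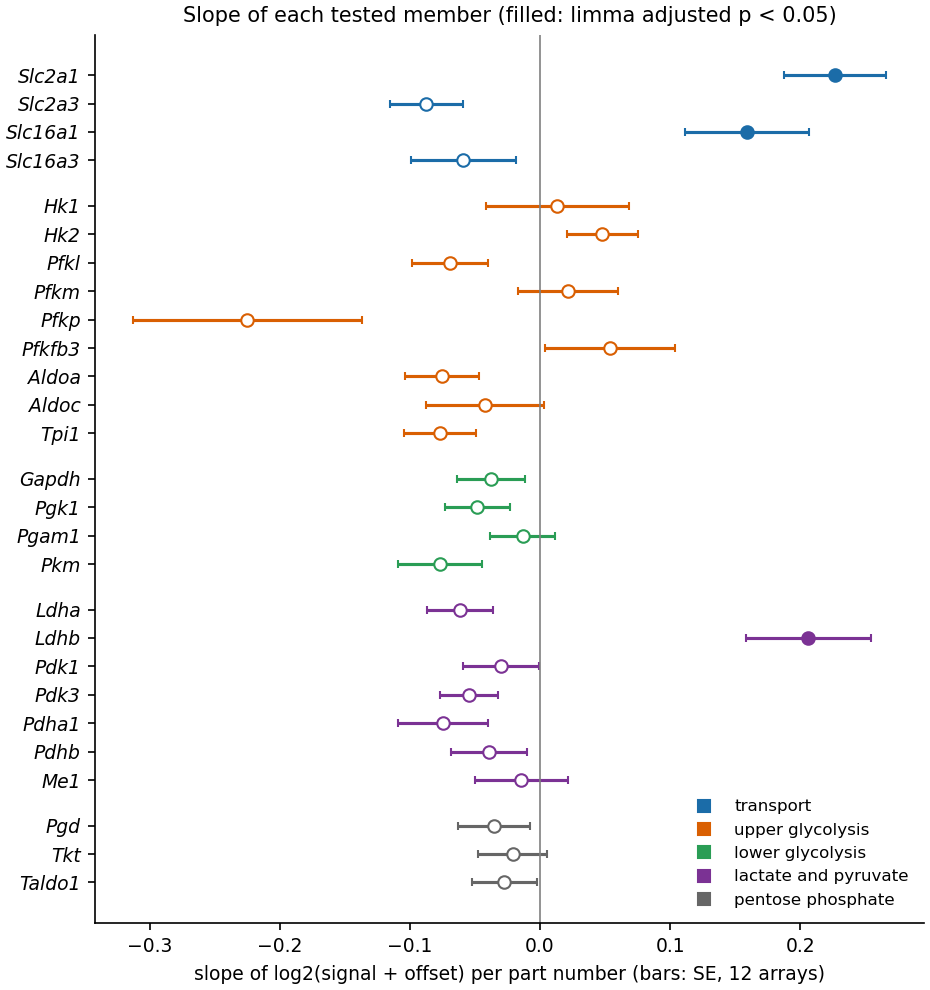
Slope of log2(signal + offset) per part number for each of the 27 tested members, grouped by role. Points are limma estimates over 12 arrays, bars are standard errors, and filled points passed at an adjusted p of 0.05. Slc2a1, Ldhb and Slc16a1 stand to the right of 0, and 20 members lie to its left without passing.

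When the 6 pieces were compared without assuming a straight course, the limma F test called Slc2a1 and Ldhb (adjusted p = 0.0355 and 0.0481), 2 of 27 members against 4.91% of all genes. Part 6 differed from part 1 for Slc2a1 alone, which was higher, 1 of 27 members against 9.07% of genes in either direction and 4.16% higher. With the embryo as a block, that is with the replicate number as a covariate, the slope test called 5 members. Slc2a3 and Pfkp were then called as lower, 2 of 27 against 8.42%, and the same 3 as higher, against 6.61%. With this block the end pieces differed for 4 members, Slc2a1, Pfkp, Ldhb and Slc16a1, against 12.2% of genes. Arrays of the end pieces did not overlap for 46.9% of all genes (part 6 above in 20.2%, below in 26.7%), so that a gap between parts 1 and 6 by itself is common in these data.

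Of the 4 transporters, 2 rose and the other 2 had slopes below 0 that did not pass. Slc2a1 encodes GLUT1, the widely used glucose carrier. Its signals on replicates 1 and 2 were 1829 and 2521 in part 1, 2664 and 3289 in part 2, 4226 and 3389 in part 3, 4490.0 and 4978 in part 4, 4449 and 4637 in part 5, and 4781 and 4785 in part 6. Both arrays of part 1 lay below all other 10 arrays, and the level was nearly flat from part 4 on. The slope was 0.23 ± 0.039 log2 per part (SE, adjusted p = 0.00178), and part 6 exceeded part 1 by 1.15 ± 0.21 log2 (adjusted p = 0.00778). Each embryo gave a positive slope on its own, 0.26 and 0.19. Further probe sets of Slc2a1 rose more steeply. One began at 893 and 1159 in part 1 and reached 3007 and 2838 in part 6 (slope 0.32 ± 0.042), and the other from 424 and 343 to 1290.0 and 1278 (0.36 ± 0.050). The slope of Slc2a1 passed in each of the 24 alternative settings, including that without both arrays of part 1, but the comparison of the ends was lost without replicate 2 of part 6 (adjusted p = 0.0558). The F test was lost in 13 of 24 settings, with adjusted p up to 0.198.

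The other glucose carrier, Slc2a3, encodes GLUT3, a carrier of high affinity known from neurons and early embryos. It stood at 5226 and 5324 in part 1, 5332 and 5072 in part 2, 5965 and 4250.4 in part 3, 5223 and 4812 in part 4, 4522 and 4084 in part 5, and 4003 and 3744 in part 6. Both arrays of part 6 lay below the other 10, a pattern seen in 3.98% of genes and in 3 of 27 members, Slc2a3, Pfkl and Pkm. Each gene was judged by its brightest probe set. The reverse, part 6 above all others, was seen in 0 members and 2.77% of genes. The slope of Slc2a3, -0.087 ± 0.028, missed the threshold (adjusted p = 0.0577) but passed in 5 of 24 alternative settings. These were the embryo as a block (-0.087 ± 0.025, adjusted p = 0.0353) and the omission of replicate 2 of part 3 (0.0473). The others were an intensity trend (0.0195), the filter at the 75th percentile (0.0384) and an offset of 16 (0.0486). With quantile normalization it was -0.056 (adjusted p = 0.170), and without both arrays of part 6 it was -0.064 (adjusted p = 0.388). A second bright probe set had a slope of -0.11 ± 0.033 (adjusted p = 0.0630 over all 21689 probe sets). The paired glucose transporters thus had slopes of opposite sign in both embryos.

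Slc16a1 encodes MCT1, which moves lactate and pyruvate together with protons. Its signals were 446 and 628 in part 1, 719 and 842 in part 2, 549 and 1082 in part 3, 779 and 836 in part 4, 966 and 975 in part 5, and 873 and 1142 in part 6. Replicate 2 was above replicate 1 in all 6 pieces, by the widest margin in part 3, and part 3 of replicate 1 fell within the range of part 1. The slope was 0.16 ± 0.047 (adjusted p = 0.0429), and 0.16 ± 0.038 with the embryo as a block (adjusted p = 0.0145). The call depended on single arrays: it was lost in 13 of 24 settings, among them the omission of either array of part 1 (adjusted p = 0.153 without replicate 1 and 0.0700 without replicate 2), of part 4 (0.0548 and 0.0569) or of part 5 (0.0735 and 0.0771), of replicate 1 of part 2 (0.0582) and of replicate 2 of part 6 (0.116). Slc16a3, the carrier MCT4 of strongly glycolytic cells, had signals of 139 and 106 in part 1, 119 and 106 in part 2, 80.3 and 123 in part 3, 98.8 and 94.8 in part 4, 99.6 and 132 in part 5, and 107 and 74.9 in part 6. These overlapped between the ends and gave a slope of -0.059 ± 0.040 (adjusted p = 0.391).

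**Figure D2:**
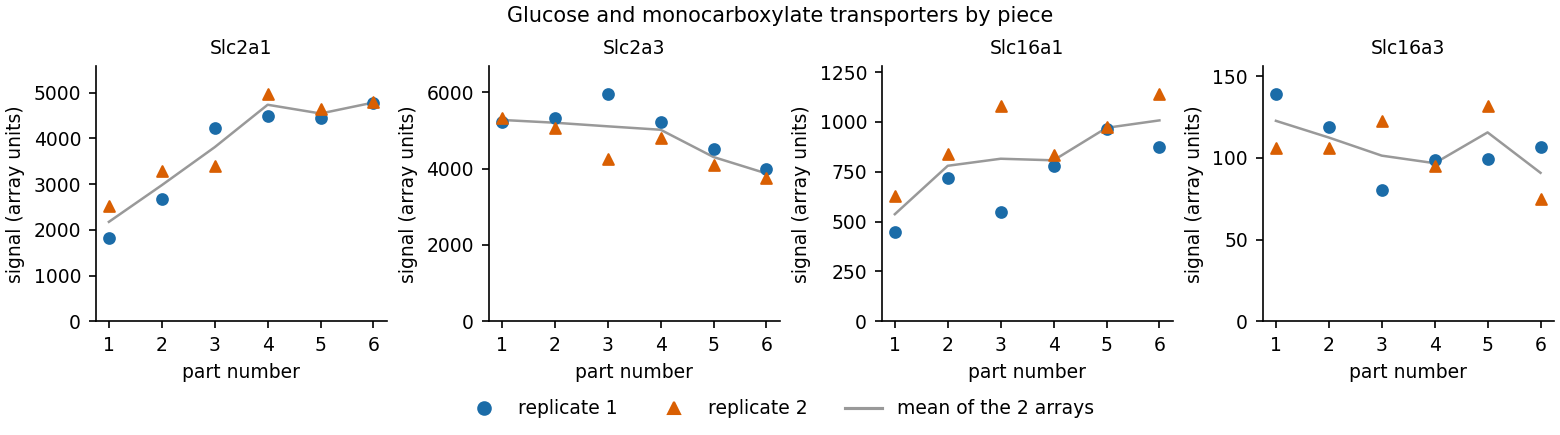
Signal of the 4 transporter genes on each array against the part number, with circles for replicate 1, triangles for replicate 2 and a line through the mean of both. Slc2a1 starts at 1829 and 2521 in part 1 and reaches 4781 and 4785 in part 6, whereas Slc2a3 ends at 4003 and 3744, below its other arrays.

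The 250 bases before the gene start are shown for the 3 members that rose and for Ldha, the isozyme partner of Ldhb that did not pass, so that their regulatory sequence can be set beside their courses. They are RefSeq promoters of build GRCm38.p6, 5′ to 3′ on the strand of the gene, and lie upstream of the annotated first exon. Slc2a1 is at chr4:119108495-119108744 (plus strand), Slc16a1 at chr3:104638414-104638663 (plus), Ldhb at chr6:142507958-142508207 (minus) and Ldha, for the first of its 2 entries, at chr7:46845554-46845803 (plus). Capitals mark ACGTG or GCGTG on either strand (CACGT or CACGC when read on the printed strand), the core to which HIF1 is known to bind; ACGTG also forms part of the E-box CACGTG, which MYC proteins are known to bind.
Slc2a1: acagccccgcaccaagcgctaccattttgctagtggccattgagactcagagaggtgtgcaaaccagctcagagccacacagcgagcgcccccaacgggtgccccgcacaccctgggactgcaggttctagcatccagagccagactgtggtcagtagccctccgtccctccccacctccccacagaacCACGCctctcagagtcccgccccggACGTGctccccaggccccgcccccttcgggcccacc
Slc16a1: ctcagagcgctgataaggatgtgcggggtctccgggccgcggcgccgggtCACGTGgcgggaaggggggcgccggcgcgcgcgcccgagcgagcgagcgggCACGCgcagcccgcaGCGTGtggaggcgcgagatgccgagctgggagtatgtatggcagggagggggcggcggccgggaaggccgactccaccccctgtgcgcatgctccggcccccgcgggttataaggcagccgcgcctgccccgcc
Ldhb: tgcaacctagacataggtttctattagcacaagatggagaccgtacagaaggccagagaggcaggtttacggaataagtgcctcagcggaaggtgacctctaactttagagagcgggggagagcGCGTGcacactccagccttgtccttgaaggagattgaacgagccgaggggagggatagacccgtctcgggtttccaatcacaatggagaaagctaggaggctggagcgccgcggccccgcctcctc
Ldha: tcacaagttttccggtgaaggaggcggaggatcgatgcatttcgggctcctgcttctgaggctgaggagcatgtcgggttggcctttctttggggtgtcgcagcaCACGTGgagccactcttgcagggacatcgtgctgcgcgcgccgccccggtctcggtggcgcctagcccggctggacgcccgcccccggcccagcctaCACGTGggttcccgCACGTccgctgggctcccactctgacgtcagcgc
Slc2a1 had 1 ACGTG and 1 GCGTG, Slc16a1 had 2 of each with 1 CACGTG, and Ldhb had 1 GCGTG. The first Ldha entry had 5 ACGTG and 2 CACGTG. Each E-box holds the shorter core on both strands and was counted once per strand, which leaves 3 marked stretches each in Ldha and Slc16a1. The table held 45 entries for 30 of the 31 listed genes, and 35 of them (77.8%) had ACGTG or GCGTG, against 38.6% of all 32851 entries. Some entries of 1 gene overlap, as for Aldoa and Eno1, so that the same motif copy can count more than once. The share was not counted per gene. The members' entries were also richer in G and C, with a median of 60.4% against 52.4%. CACGTG was present in 4 of 45 (8.9%) against 6.02%. These letter matches describe the windows only.

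The upper steps of glycolysis, from hexokinase to triose phosphates, had 9 tested members, of which 0 passed the slope test, 4 with a slope above 0 and 5 below. At an unadjusted p under 0.05 the limma slope test gave 0 higher and 4 lower, where all genes had 11.7% and 14.8%. Hexokinase traps glucose in the cell as its phosphate. Hk2, the inducible hexokinase, had signals of 811 and 962 in part 1, 1168 and 1152 in part 2, 1101 and 1056 in part 3, 1141 and 1054 in part 4, 1192 and 1121 in part 5, and 1164 and 1065 in part 6. Both arrays of part 1 were below the other 10, and the rest formed a plateau. Its slope was 0.048 ± 0.027 (adjusted p = 0.298), and it was at -0.0018 without both arrays of part 1. Pfkfb3, which makes the activator of phosphofructokinase fructose 2,6-bisphosphate, had a similar course in its brightest set, with 84.7 and 75.6 in part 1 and between 99.6 and 160.3 on the other 10 arrays (slope 0.054 ± 0.050, adjusted p = 0.542). A dim further set of Pfkfb3 had 18.7 and 2.03 in part 1 and did not show this course (slope 0.019). By the brightest set of each gene, part 1 held both lowest arrays in 3 of 27 members, Slc2a1, Hk2 and Pfkfb3, and in 7.04% of all genes. Hk1, the constitutive hexokinase, showed no order: 162 and 66.2 in part 1, 101 and 127 in part 2, 156 and 113 in part 3, 135 and 121 in part 4, 137 and 116 in part 5, and 91.9 and 121 in part 6, with slopes of -0.083 in embryo 1 and 0.11 in embryo 2.

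Phosphofructokinase, the main control point of the pathway, is built from liver, muscle and platelet type subunits. The brightest set of Pfkl, the liver type, had signals of 2878 and 2127 in part 1, 2543 and 2527 in part 2, 2694 and 2238 in part 3, 2523 and 2267 in part 4, 2267 and 2269 in part 5, and 2032 and 1772 in part 6. Part 6 held its lowest arrays, but the 2 arrays of part 1 were far apart and the slope did not pass (-0.069 ± 0.029, adjusted p = 0.146); it passed only without replicate 2 of part 1 (-0.099, adjusted p = 0.0244). In a second set of Pfkl (slope -0.073), replicate 2 of part 1 (895) lay below replicate 1 of part 6 (960). A dimmer set had its lowest array in replicate 2 of part 1 (84.1) and a slope of -0.0029. Pfkm, the muscle type, stood at 240.2 and 171 in part 1, 209 and 186 in part 2, 212 and 186 in part 3, 217 and 201 in part 4, 253 and 239 in part 5, and 247 and 154 in part 6, with a slope of 0.021 ± 0.038 (adjusted p = 0.779). The platelet type Pfkp is taken up with the differences between replicates, since its 2 arrays of a piece were apart throughout.

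Aldolase cleaves fructose bisphosphate into triose phosphates, and triose phosphate isomerase interconverts them. Aldoa, the form of muscle and most embryonic tissue, had 3702 and 3157 in part 1, 3420.2 and 2967 in part 2, 3136 and 2407 in part 3, 3240.1 and 3057 in part 4, 2773 and 2602 in part 5, and 2663 and 2451 in part 6. All arrays of part 6 lay below those of part 1, and all 5 of its probe sets had slopes below 0 (-0.022 to -0.075), without passing (adjusted p = 0.105 for the brightest). Aldoc, the brain form, was dim, with 73.2 and 60.5 in part 1, 48.4 and 42.7 in part 2, 40.4 and 32.3 in part 3, 52.1 and 59.9 in part 4, 48.5 and 45.0 in part 5, and 47.6 and 48.9 in part 6. Part 1 was above all other arrays, and its slope of -0.042 ± 0.045 became 0.049 without part 1. Tpi1 ranged from 2898 to 4600.2 with a slope of -0.077 ± 0.028 (adjusted p = 0.0903), and of -0.084 and -0.049 for 2 further probe sets. With an intensity trend in the limma fit, the slope of its brightest set passed as lower (adjusted p = 0.0394).

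In the lower steps, which yield ATP and pyruvate, all 4 tested members had a slope below 0 and 0 passed. The unadjusted limma p was under 0.05 for 0 higher and 1 lower, beside the same 11.7% and 14.8%. Pkm, pyruvate kinase, which makes pyruvate, had 4467 and 3922 in part 1, 3183 and 3473 in part 2, 4269.8 and 2900.0 in part 3, 3541 and 3457 in part 4, 3673 and 2999 in part 5, and 2892 and 2875 in part 6. Part 6 held its lowest arrays, with replicate 2 of part 3 close to them, and the slope was -0.077 ± 0.032 (adjusted p = 0.144). The single probe set of Pkm does not separate the M1 and M2 splice forms here. The ranges were 5053 to 6576 for phosphoglycerate kinase Pgk1 and 2240.5 to 2762 for phosphoglycerate mutase Pgam1, with slopes of -0.048 ± 0.025 and -0.013 ± 0.025. A further probe set of Pgk1 had a slope of 0.0053. Eno2, the neuronal enolase, had 4.45 and 2.19 in part 1, 13.4 and 13.0 in part 2, 2.71 and 10.1 in part 3, 7.28 and 10.5 in part 4, 11.2 and 7.14 in part 5, and 7.73 and 9.95 in part 6. All lay under the array medians of 16.7 to 19.1.

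Gapdh, the dehydrogenase of triose phosphate and a common reference gene, was represented only by control probe sets along its transcript. The set at its 3′ end had 5424 and 6036 in part 1, 5678 and 5126 in part 2, 6107 and 4649.8 in part 3, 5782 and 5518 in part 4, 5198 and 4651 in part 5, and 4762 and 5209 in part 6, a slope of -0.038 ± 0.026 (adjusted p = 0.401). The set at its 5′ end had 578 and 710.2 in part 1, 915 and 1381 in part 2, 666 and 1579.6 in part 3, 1018 and 1123 in part 4, 1071 and 848 in part 5, and 958 and 1531 in part 6. The slope at the 5′ end was 0.11 ± 0.067 (adjusted p = 0.367 over all probe sets), and its difference from the 3′ end was not tested. The ratio of the 3′ to the 5′ signal, which grows as copied RNA shortens, ran from 2.94 in replicate 2 of part 3 to 9.39 in replicate 1 of part 1. In part 1 it was 9.39 and 8.50. For the actin transcript Actb the ratio ran from 5.24 to 16.05 on the same scale. With the mean of both log ratios as a covariate, the slope test called 2 members, Slc2a1 (0.22 ± 0.043, adjusted p = 0.00590) and Ldhb (0.25 ± 0.041, adjusted p = 0.00231), against 10.3% of genes. Slc16a1 then had a slope of 0.11 ± 0.033 (adjusted p = 0.0568).

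The fate of pyruvate was covered by 7 tested members, of which Ldhb alone passed and 6 had slopes below 0. Lactate dehydrogenase interconverts pyruvate and lactate. Its B subunit, common in oxidative tissue, had Ldhb signals of 796 and 582 in part 1, 557 and 494 in part 2, 689 and 576 in part 3, 1083 and 865 in part 4, 1212 and 1119 in part 5, and 1194 and 940.5 in part 6. For this brightest set, all 6 arrays of parts 4 to 6 were above all 6 of parts 1 to 3, and part 2 was the low point. The split was read from these values, and the share of all genes that show it was not counted. In 2 of the 3 further probe sets the groups overlapped, with replicate 1 of part 1 (743 and 730) above replicate 2 of part 6 (709 and 713). The slope was 0.21 ± 0.048 (adjusted p = 0.0121) and passed in each of 24 alternative settings, while part 6 against part 1 was 0.64 ± 0.22 (adjusted p = 0.111; 0.0255 with the embryo as a block). The F test was lost in 16 of 24 settings, with adjusted p up to 0.140. The 3 further probe sets had slopes of 0.18, 0.17 and 0.19, of which 1 passed over all probe sets (adjusted p = 0.0534, 0.0438 and 0.0633).

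The A subunit, typical of lactate-producing tissue, had a slope of the other sign, and the difference between the subunits was not tested. Ldha had 5782 and 6146 in part 1, 5962 and 5187 in part 2, 6255 and 4722 in part 3, 5563 and 5474 in part 4, 5079 and 4575 in part 5, and 4842 and 4768 in part 6. Part 6 lay below part 1 and the slope was -0.061 ± 0.026, the same in both embryos to 2 decimals (-0.061 and -0.062), but it did not pass (adjusted p = 0.142).

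Pyruvate dehydrogenase commits pyruvate to the mitochondrion, and its kinases switch it off. Pdk1 had 939 and 1339 in part 1, 1018 and 1064 in part 2, 1036 and 1075 in part 3, 961 and 966 in part 4, 969 and 932 in part 5, and 1155 and 939.7 in part 6 (slope -0.030 ± 0.029, adjusted p = 0.565). Its 4 probe sets all had slopes below 0, to -0.067. Pdk3 had 398 and 400.2 in part 1, 399.7 and 356 in part 2, 329 and 341 in part 3, 356 and 315 in part 4, 330.2 and 351 in part 5, and 330.0 and 319 in part 6 (slope -0.055 ± 0.022, adjusted p = 0.131). For the brightest set of each kinase, the highest array was 1.44 (Pdk1) and 1.27 (Pdk3) times the lowest. The dimmer sets of Pdk1 ranged more widely, from 269 to 466, from 187 to 318 and from 6.45 to 31.9. For the brightest sets of the enzyme's own subunits the figure was 1.84 for Pdha1 and 1.60 for Pdhb. Pdha1, the catalytic alpha subunit, began at 1021 and 1399 in part 1 and ended at 946 and 759 in part 6 (slope -0.074 ± 0.035, adjusted p = 0.190), and Pdhb, the beta subunit, at 914 and 1192 and at 816 and 846 (-0.039 ± 0.029, adjusted p = 0.432). For the brightest set of Pdhb both arrays of part 1 were above the other 10, as for Aldoc, 2 of 27 members against 7.59% of genes. A dim further set of Pdhb had 17.0 and 22.8 in part 1 but 25.9 in replicate 1 of part 2, and a slope of 0.011. The malic enzyme Me1, which makes NADPH and pyruvate, was dim at 21.2 to 37.7 (slope -0.014 ± 0.036).

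**Figure D3:**
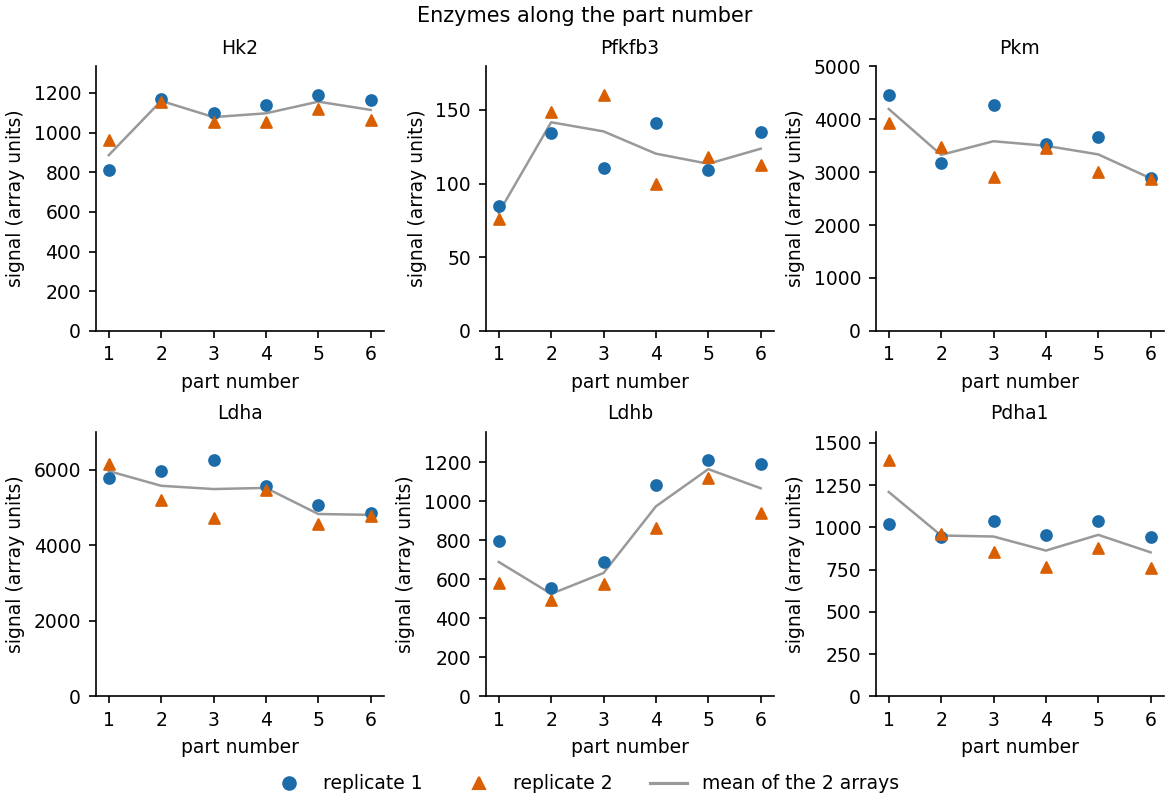
Signal on each array against the part number for 6 enzyme genes, with circles for replicate 1, triangles for replicate 2 and a line through the mean of both. For the probe sets shown, Hk2 and Pfkfb3 are lowest in part 1, and Pkm, Ldha and Pdha1 have slopes below 0 that did not pass. Ldhb is higher in parts 4 to 6 than in parts 1 to 3 for the probe set shown, whereas some further sets overlap.

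The pentose phosphate members were nearly level, with 0 of 3 called and slopes between -0.035 and -0.021. At an unadjusted p under 0.05 the limma slope test also gave 0 of 3. Pgd, the second oxidative enzyme of the branch, had 2854 and 3334 in part 1, 3154 and 3163 in part 2, 3220.2 and 2399.8 in part 3, 3064 and 3300.3 in part 4, 2903 and 2755 in part 5, and 2649.8 and 2759.7 in part 6. Its lowest array was replicate 2 of part 3, which was also the lowest for Aldoa, the 3′ set of Gapdh and Tkt. A further probe set of Pgd had a slope above 0 (0.016). Transketolase (Tkt, 4739 to 6340.2) and transaldolase (Taldo1, 831 to 1117), which carry carbon back to glycolysis, had slopes of -0.021 ± 0.026 and -0.028 ± 0.025. The slope of Tkt turned to 0.020 with quantile normalization, and a dim further probe set of it had 0.066.

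Other genes of sugar and pyruvate metabolism gave 3 calls among 43 tested, all lower, a share near the 7.08% of all genes called lower. At an unadjusted p under 0.05 the limma slope test gave 11 lower and 3 higher, against 14.8% and 11.7% of all genes. Mpc1, a subunit of the mitochondrial pyruvate carrier, fell from 114 ± 7.62 in part 1 to 37.4 ± 5.74 in part 6 (SD, n = 2; slope -0.27 ± 0.059, adjusted p = 0.00901), although not without both arrays of part 1 (adjusted p = 0.210). Gbe1, the branching enzyme of glycogen synthesis, fell from 48.1 ± 3.73 to 23.2 ± 0.864 (slope -0.19 ± 0.031, adjusted p = 0.00101). Bpgm, which makes 2,3-bisphosphoglycerate, fell from 374 ± 0.162 to 235 ± 32.0 (-0.12 ± 0.031, adjusted p = 0.0188), a call lost without replicate 1 of part 1 (adjusted p = 0.0592) or of part 6 (0.0640). The median slope of these 43 genes was -0.028, against -0.0073 over all genes. Calls at the adjusted threshold numbered 2 to 6 over the 24 alternative settings, and 5 with an intensity trend.

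Other genes of the hypoxia response had slopes mostly opposite in sign to that of Slc2a1. Of 26 tested genes of that list, which left out the members, 6 fell and 0 rose, against 7.08% and 5.66% of all genes, and 23 had slopes below 0, against 54%. The limma slope test at an unadjusted p under 0.05 gave 12 lower and 0 higher, against 14.8% and 11.7% of all genes. Their median slope was -0.076, against -0.0073 over all genes. Anxa2, an annexin, went from 107 ± 67.5 to 19.5 ± 4.23 (slope -0.44 ± 0.067, adjusted p = 0.000710), and Ndrg1, a stress-response gene, from 53.03 ± 40.9 to 6.80 ± 0.0746 (-0.53 ± 0.087, adjusted p = 0.00133). Ddit4, an inhibitor of mTORC1 signalling, had a slope of -0.26 ± 0.057 (adjusted p = 0.00745), and Bnip3, which marks mitochondria for removal, went from 1668 ± 21.8 to 836 ± 80.1 (-0.18 ± 0.039, adjusted p = 0.00869). Bnip3 was not called without both arrays of part 1 (adjusted p = 0.0934) or of part 6 (0.124), nor Ddit4 without part 6 (0.0820). Ndrg1 had a slope of -0.34 with an offset of 16, still called. Over the 24 alternative settings 2 to 8 genes of the list were called, with 2 when both arrays of part 6 were left out. The markers of presomitic mesoderm and surface ectoderm given above were also uneven along the tube. The sum for presomitic mesoderm was highest in part 1 in both replicates, and that for surface ectoderm in part 1 of replicate 1 (1388) but in part 2 of replicate 2 (830 against 507 in part 1). Their part in these slopes was not tested. Hif1a itself had a slope of -0.048 ± 0.027 (adjusted p = 0.288).

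**Figure D4:**
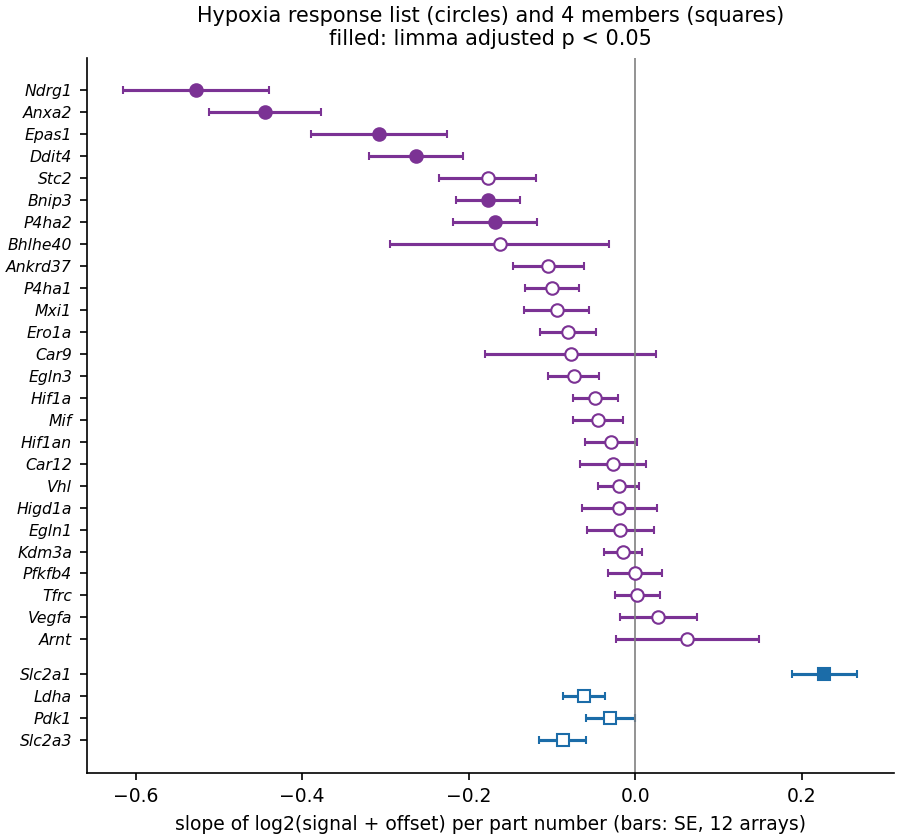
Slope of log2(signal + offset) per part number, with standard errors over 12 arrays, for the 26 tested genes of the hypoxia response list (circles) and for 4 members often counted among hypoxia targets (squares); filled symbols passed at a limma adjusted p of 0.05. Of the list, 23 genes lie left of 0 and 6 of these passed, whereas Slc2a1 lies at 0.23.

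The Myc family gave 1 gene higher and 1 lower of 12, shares near those of all genes (5.66% and 7.08%). Mycn, the MYC protein of neural progenitors, rose from 1004 ± 220.4 to 2351 ± 275 (slope 0.24 ± 0.041, adjusted p = 0.00163). Mxd4, a repressor of the MYC network, fell from 82.1 ± 5.68 to 27.6 ± 9.08 (-0.26 ± 0.050, adjusted p = 0.00344), but the slope was 0.020 for a second, dimmer probe set, and without both arrays of part 6 it was not called (adjusted p = 0.0638).

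Between the replicates, Pfkp was the member that differed. A limma fit that also held a term for the piece called 1 of 27 members as different, lower in replicate 2, against 1.63% of genes in either direction (0.91% lower and 0.72% higher). Pfkp signals were 276 and 82.5 in part 1, 125 and 73.3 in part 2, 114 and 62.9 in part 3, 105 and 47.7 in part 4, 100.5 and 55.4 in part 5, and 72.4 and 46.1 in part 6. Replicate 2 was lower in all 6 pieces (the replicates kept 1 order in all 6 pieces for 14% of genes), by -0.95 ± 0.14 log2 (adjusted p = 0.0157), and the slopes within the embryos were -0.30 and -0.15. A second probe set of Pfkp did not show the difference: it had 64.6 and 68.0 in part 1 and 40.1 and 73.3 in part 6, and a mean difference of 0.14 (adjusted p = 0.653 over all probe sets). The call for Pfkp was lost without either array of part 3 (adjusted p = 0.0501 and 0.0520) or of part 4 (0.0578 and 0.0572), and with the 3′ to 5′ covariate (-1.09, adjusted p = 0.0762). With the embryo as a block the slope of Pfkp was -0.23 ± 0.044 (adjusted p = 0.00449; 0.117 without the block). Without the block it was -0.12 when replicate 1 of part 1, its highest array, was left out (adjusted p = 0.366), and -0.17 with the 3′ to 5′ covariate (adjusted p = 0.273). The slope of the second probe set, without the block, was -0.073 ± 0.042.

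Probe sets of 1 gene did not always give the same replicate difference, and their differences from each other were not tested. For Pdk1, a dim set (mean signal 19.0) was higher in replicate 2 in all 6 pieces, by 0.99 log2 (adjusted p = 0.0153 over all probe sets), while its brighter sets had differences of 0.047, -0.31 and -0.32. Among all kept probe sets the replicates differed for 3.72%. For Pdha1 the dimmer set was higher in replicate 2 in all 6 pieces, by 0.64 (adjusted p = 0.0791), and the brighter one differed by -0.11. The 5′ set of Gapdh differed by 0.43 (adjusted p = 0.227) and its 3′ set by -0.081. Outside the members, Pgm1, phosphoglucomutase, which links glycogen to glycolysis, was lower in replicate 2 by -0.80 ± 0.091 (adjusted p = 0.00421), with -0.50 for a dimmer set.

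**Figure D5:**
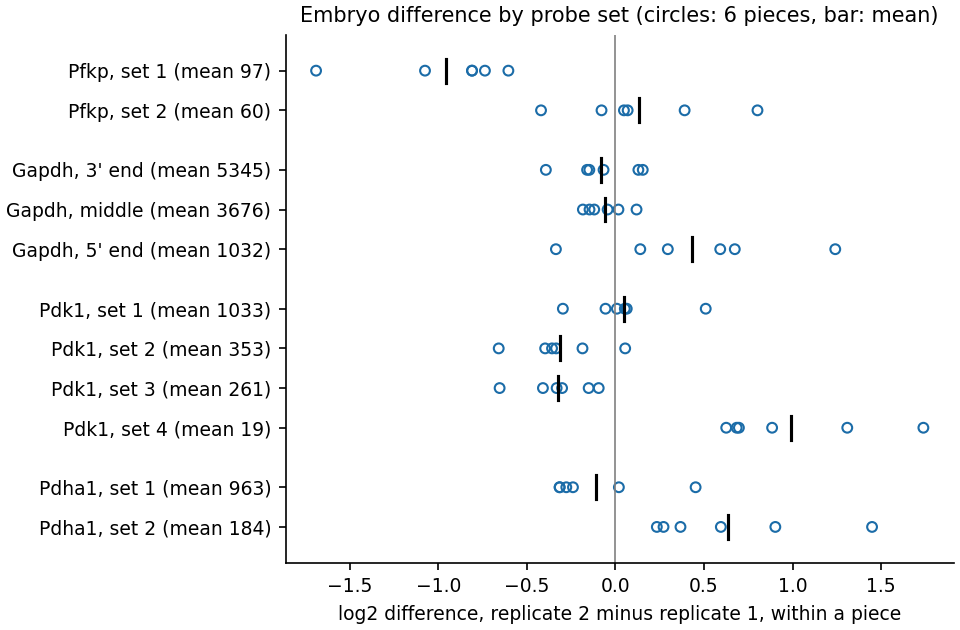
Log2 difference of replicate 2 minus replicate 1 within each of the 6 pieces (circles) and its mean (bar) for the kept probe sets of Pfkp, Gapdh, Pdk1 and Pdha1, with each set's mean signal in brackets. Sets of one gene differ: Pfkp has -0.95 for set 1 and 0.14 for set 2, and Pdk1 set 4 has 0.99.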

How the data were processed

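Signals were measured on 12 Affymetrix arrays. The authors deposited linear intensities, 1 per probe set, for which the submitters' processing notes name MAS5; version and settings: not given in the sources used here. Each array had a 2% trimmed mean of 100.0. Labelling followed a double amplification per the labels' protocols.

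Probe sets annotated with 1 gene were used (34958 of 45101; several genes 932, none 9211), with symbols updated through RefSeq identifiers. Probe sets above the array median on at least 2 arrays were kept (21689), and the brightest on average represented each gene (12090 genes). Control sets naming 1 gene stayed in. Signals became log2(signal + 4.43), 0.25 of the median of all signals; this understates changes of dim genes. limma 3.58.1 in R 4.3.3 fitted the slope, the F test, the end pieces and the replicate difference, with Benjamini-Hochberg adjustment over all genes at 0.05. The steps were run on simulated data with independent noise on every array. Same-numbered arrays of the real data deviate together, so that run does not bear on this feature.

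Same-numbered arrays deviated together in all 15 pairs of pieces (r from 0.183 to 0.335 across genes), and the design text names 2 embryos, so the numbers were taken as pairing. Shared handling of same-numbered arrays cannot be told apart from the embryo. The members, lists and tests were chosen with earlier results of these data known. Values on every array are given for called members, isozyme pairs and at least 1 member per role; from other lists, up to 4 called genes with the smallest p. Pgm1 and Hif1a fall outside that rule and were named after their values were seen. The alternatives with the 3′ to 5′ covariate and without control probe sets were chosen after seeing the data.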

Additional observations from a re-analysis of the deposited data

How the results depend on the processing

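Of 645 recomputed slopes of the 27 members, 615 kept direction and side of the threshold, 13 lost and 8 gained a call, and 9 changed sign, all of slopes that had not passed. Without both arrays of part 1 these were Hk1 (-0.028), Hk2 (-0.0018), Pfkfb3 (-0.061), Aldoc (0.049) and Pdhb (0.0057); without single arrays Hk1 (-0.060 to 0.060, below 0 without replicate 2 of part 1) and Me1 (-0.032 to 0.019, above 0 without replicate 1 of part 6); without both arrays of part 6 Me1 (0.048), and with quantile normalization Tkt (0.020). The causes were not tested.

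Members called by slope (3) numbered 5 with an intensity trend and 5 with the embryo as a replicate block, and 2 to 4 without single arrays. By the F test (2) there was 1 with an offset of 1, 1 with quantile normalization, 0 without a filter, 0 with every probe set tested, 0 with the 3′ to 5′ covariate, 1 without both arrays of part 1, 0 without both of part 6, and 0 to 2 without single arrays. Between the ends (1) there were 4 with the block and 0 to 2 without single arrays. Between replicates (1) there were 0 with the covariate and 0 to 1 without single arrays. Why these counts moved was not tested.

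Over all genes, 1540 were called by slope, 908 without both arrays of part 1 and 986 without both of part 6 (1178 to 1544 without single arrays). The F test called 594, 302 without part 1, 328 without part 6 and 342 to 568 without single arrays (381 and 342 without replicates 1 and 2 of part 6). The ends differed for 1097 genes, 552 with the covariate and 485 to 1311 without single arrays (605 and 485 without replicates 1 and 2 of part 6). The replicates differed for 197 genes, 367 with an offset of 16, 114 without a filter, 488 with the filter at the 75th percentile, 611 with an intensity trend, 115 without both arrays of part 6, 44 with the covariate and 112 to 171 without single arrays. The block changed no other call of a member than those given. Eno2 lay under the array medians and was not tested. Values of dim genes, such as Me1, Ndrg1 and Gbe1, lie near the array medians and are less certain.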
